A study of Mus musculus with 18 samples.

Results

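The comparison described here is the difference in response to stimulation between a FOXS1 KO clone and wild-type cells, taken as the log2 change of clone 1 after stimulation minus the log2 change of WT after stimulation. It rests on 12 of the 18 libraries of the experiment, 3 in each of 4 groups, and on all 14056 genes of the 54532 in the count table that passed a filter on low counts by group. The cells were 10T1/2 (CH310T1/2 in the labels), a multipotent mouse mesenchymal line. The 4 groups were uninduced WT cells, WT cells that received TGF-β1 at 1 nM over 12 h before 48 h in DMII (a mix of insulin, indomethacin, dexamethasone and 3-isobutyl-1-methylxanthine), and FOXS1 KO clone 1 in the same 2 states. Cells of both genotypes were grown to 2 days post-confluence before treatment. Clone 1 is 1 line grown from a single edited cell, so that a property of this line and an effect of the FOXS1 edit cannot be told apart from these 12 libraries, and no group received TGF-β1 alone or DMII alone. The labels do not say whether the 3 libraries of a group came from separate cultures, and p-values then measure only the spread between these samples.

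TGF-β1 signals through SMAD proteins and drives fibroblasts toward a contractile, matrix-producing myofibroblast state, in which it opposes adipogenic differentiation. The components of DMII act in the other direction: dexamethasone activates the glucocorticoid receptor, 3-isobutyl-1-methylxanthine blocks the breakdown of cAMP by phosphodiesterases, insulin promotes lipid storage, and indomethacin inhibits cyclooxygenases. FOXS1 is a forkhead transcription factor. The design asks whether cells that lack it respond differently to this pair of opposing signals given in sequence.

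Library totals ran from 15576685 to 29383944 counts, and levels are given below as counts per M counts after TMM scaling (CPM). Of the 12 mesenchymal fibroblast markers, all were tested. Their summed level lay between 33756 and 38574 CPM in uninduced and between 60101 and 74234 CPM in stimulated libraries. Of 8 endothelial, 8 epithelial and 8 skeletal muscle markers, 2, 1 and 1 were tested. The summed macrophage and leukocyte markers reached 4.46 to 10.0 CPM in WT and 15.96 to 54.7 CPM in clone 1, mostly from Cd14. Lyz2 had 6.38, 5.92 and 4.65 CPM in uninduced clone 1 and at most 0.953 CPM in every other group. Ptprc, Tyrobp and Cd3e had no count in any of the 12 libraries. Summed endothelial markers were at 14 to 37.8 CPM in WT, mostly from Erg, and at most 3.31 CPM in clone 1. Summed neural and glial markers, mostly S100b in uninduced cells, went from 70.8 to 79.3 down to 11 to 11.9 CPM in WT. In clone 1 they went from 21.9 to 27.4 down to 6.66 to 7.49 CPM. Stimulated WT had 6.9 to 7.55 CPM of Tubb3 and 3.15 to 3.57 CPM of S100b. Epithelial and skeletal muscle markers summed to at most 3.82 and 2.06 CPM in any library. The part of these markers in the results was not tested. Since the samples are bulk RNA, fewer cells of a type and less RNA per cell cannot be told apart.

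Foxs1 had 1.83, 3.28 and 1.67 CPM in the uninduced WT libraries, 3.2, 2.6 and 1.89 in the stimulated WT libraries, 27, 27.5 and 23.6 in uninduced clone 1 and 54.7, 54 and 57.4 in stimulated clone 1. The targeted gene (ENSMUSG00000074676, chromosome 2 from 152931898 to 152933208) was thus higher in every library labelled clone 1 than in any WT library, and a total over the gene does not show an edit inside it. The study checked its KO clones by sequencing the locus and by western blot for the FOXS1 protein, neither of which is analysed here. Its response was 0.20 on the log2 scale in WT and 1.09 in clone 1. The difference of 0.89 (SE 0.264, edgeR adjusted p = 0.0138) passed the threshold on p but not the one on size.

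A gene is called here when its p by the quasi-likelihood test of edgeR, adjusted by Benjamini and Hochberg, is below 0.05 and its log2 value exceeds 1 in size. The response of clone 1 was higher than that of WT for 728 genes (5.18% of those tested) and lower for 468 (3.33%). These shares are the background for the list counts below, and a list count near them is not read as a result about the list. Over all tested genes the median difference in response was -0.01. Most higher responses came from genes that TGF-β1 + DMII lowered in WT: 270 of the 728 fell in WT without a call in clone 1, 102 fell in both, and 37 fell in WT and rose in clone 1. A further 183 rose in clone 1 without a call in WT, 32 rose in both, and 104 had no call in either genotype. For comparison, 13.2% of all tested genes fell and 6.26% rose in WT, and 10.3% fell and 5.84% rose in clone 1. Among the 468 lower responses, 141 genes rose in WT without a call in clone 1, 44 rose in both, 15 rose in WT and fell in clone 1, 136 fell in clone 1 without a call in WT, 62 fell in both, and 70 had no call in either.

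**Figure D1:**
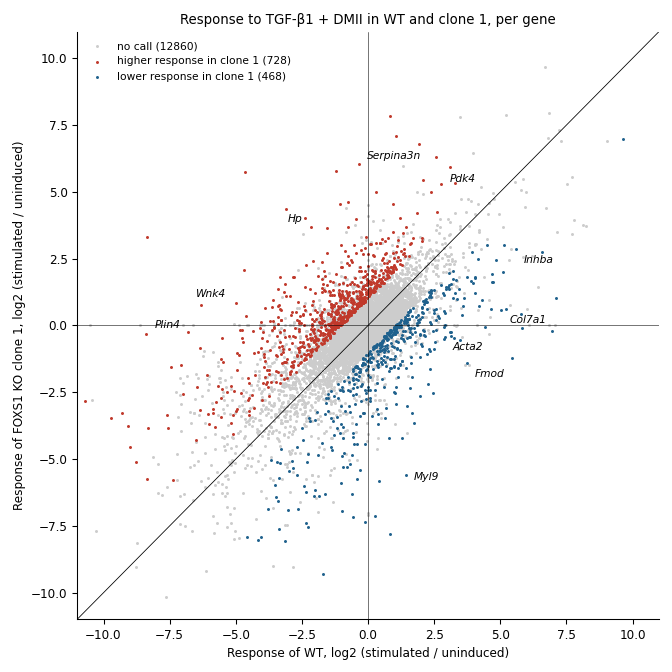
Response of each of the 14056 tested genes in WT (horizontal axis) and clone 1 (vertical axis), both as log2 of stimulated over uninduced, with the line of equal response. The 728 genes in red lie above the line and the 468 in blue below it. Values of genes with a group at 0 counts are model estimates that depend on the prior count.

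**Figure D2:**
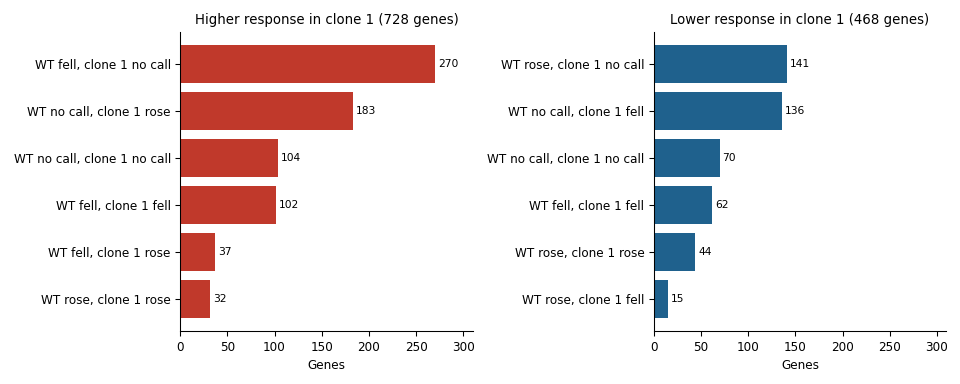
Number of genes in each class of response, for the 728 genes with a higher and the 468 with a lower response in clone 1. The largest class on the left is a fall in WT with no call in clone 1 (270 genes), and on the right a rise in WT with no call in clone 1 (141 genes).

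The same genes can be sorted by the gap between clone 1 and WT in each state. Uninduced, clone 1 and WT differed for 14.4% of tested genes, and stimulated for 18.6%. Of the 728 genes, 352 were called higher in clone 1 after stimulation and had no call uninduced. Another 116 were lower in clone 1 uninduced and had no call once stimulated. Of the 468, 170 were called lower in clone 1 after stimulation and not uninduced, 109 were lower in both states, 71 were higher uninduced and had no call stimulated, and 24 turned from higher to lower. A constant gap along a chromosome cancels in the difference in response. The chromosome medians of the uninduced gap spread from -0.41 to 0.46 over 20 chromosomes, and those of the difference in response from -0.07 to 0.03.

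The 10 largest gains among abundant genes that kept their call with each library left out in turn were Plin4, Serpina3n, Ifi27l2a, Wnk4, Hp, Fabp4, Col15a1, Ceacam1, Scrn1 and Map7d2. Plin4 had 48.8, 36.7 and 44.4 CPM in the uninduced WT libraries, 0.0999, 0.0883 and 0.184 in the stimulated WT libraries, 171, 204 and 177 in uninduced clone 1 and 142, 168 and 137 in stimulated clone 1. Plin4 encodes a perilipin, a coat protein of lipid droplets. It fell to under 0.2 CPM in stimulated WT and had a response of -0.30 in clone 1, a difference of 8.07 (SE 0.289, edgeR adjusted p = 6.15e-13). Wnk4 had 35.4, 30.4 and 27.5 CPM in the uninduced WT libraries, 0.699, 1.06 and 1.1 in the stimulated WT libraries, 44.1, 47.9 and 42.2 in uninduced clone 1 and 74.8, 88.7 and 78.5 in stimulated clone 1. Its groups did not overlap: WNK4, a kinase that controls ion transport, fell in WT and had a response of 0.85 in clone 1, with a difference of 5.85 (SE 0.186, edgeR adjusted p = 4.26e-16), and 7.38% of its exonic bases are shared with another gene. Map7d2 had 5.73, 4.92 and 5.7 CPM in the uninduced WT libraries, 2.95, 3.97 and 2.62 in the stimulated WT libraries, 2.59, 2.71 and 2.88 in uninduced clone 1 and 34.9, 37.3 and 34.5 in stimulated clone 1. The gene, a microtubule-associated protein, rose in clone 1 by 3.7 and had a WT response of -0.77, a difference of 4.48 (SE 0.22, edgeR adjusted p = 5.08e-13). Ifi27l2a, an interferon-induced gene, had no count in stimulated WT libraries. At the floor of 3 counts over that group its response was higher in clone 1 by at least 3.08 on the log2 scale.

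Col15a1 and Scrn1 were low in clone 1 throughout. Col15a1 had 99.7, 106 and 98.6 CPM in the uninduced WT libraries, 3.55, 4.28 and 4.46 in the stimulated WT libraries, 0.623, 0.271 and 0.261 in uninduced clone 1 and 0.76, 0.414 and 0.368 in stimulated clone 1. Both states of clone 1 lay below every WT library, and the higher response of this basement membrane collagen stands beside a log2 change of -4.62 in WT. Scrn1 had 79.8, 67 and 69.3 CPM in the uninduced WT libraries, 4.75, 5.25 and 4.51 in the stimulated WT libraries, 0.104, 0.0543 and 0.209 in uninduced clone 1 and 0.0543, 0.113 and 0.414 in stimulated clone 1. Secernin 1 likewise fell in WT and stayed near 0 in clone 1. For both genes the differences of 4.97 and 4.53 rest on few counts in clone 1.

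The 10 largest losses were Myl9, Fmod, Col8a2, Penk, Htra1, Col7a1, Actg2, Nid1, Gm2a and Gpm6b. Fmod had 5.79, 7.89 and 7.6 CPM in the uninduced WT libraries, 103, 95.8 and 85.4 in the stimulated WT libraries, 36, 34.2 and 37.9 in uninduced clone 1 and 15.9, 14.4 and 10.3 in stimulated clone 1. Fibromodulin, a collagen-binding proteoglycan, rose in WT by 3.73 and fell in clone 1 by a log2 change of -1.42, so that clone 1 was above WT uninduced and below it stimulated. The difference was -5.15 (SE 0.187, edgeR adjusted p = 4.16e-14). Col8a2 had 60.1, 56.6 and 55.8 CPM in the uninduced WT libraries, 212, 230.1 and 228 in the stimulated WT libraries, 7.47, 8.52 and 8.52 in uninduced clone 1 and 0.977, 1.47 and 1.43 in stimulated clone 1. This short-chain collagen also moved in opposite directions, 1.96 in WT and -2.63 in clone 1, with a difference of -4.59 (SE 0.148, edgeR adjusted p = 5.04e-16). Col7a1 had 6.14, 5.82 and 3.95 CPM in the uninduced WT libraries, 165, 175 and 169.7 in the stimulated WT libraries, 0.467, 0.706 and 0.523 in uninduced clone 1 and 1.09, 0.564 and 0.966 in stimulated clone 1. The anchoring fibril collagen rose in WT by 5.03 and stayed at or below 1.09 CPM in clone 1. Gpm6b had 133, 128 and 119 CPM in the uninduced WT libraries, 92.6, 92.9 and 95.2 in the stimulated WT libraries, 34.9, 35.7 and 41.6 in uninduced clone 1 and 1.63, 1.84 and 1.61 in stimulated clone 1. This membrane glycoprotein fell in clone 1 and had a WT response of -0.44 (difference -4.01 (SE 0.134, edgeR adjusted p = 8.69e-16)).

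Myl9, Penk, Nid1 and Gm2a had no count in stimulated clone 1 and under 2 CPM in uninduced clone 1, against 37.2 to 355 CPM in uninduced WT. At the floor the response of clone 1 was lower by at least 4.06 for Myl9, 1.62 for Penk, 1.41 for Nid1 and 1.36 for Gm2a on the log2 scale. For Htra1, with 1 library above 0 in stimulated clone 1, the same floor gave 4.14. Of the exonic bases of Penk, 14.3% lie under another gene. Over all called genes, 17 of the 728 and 33 of the 468 had a group without counts, and at the floor the difference fell below the size threshold for 1 and 3 genes, counting also those with a group under the floor.

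Glucocorticoid-induced genes gained response. Dexamethasone, through the glucocorticoid receptor, induces a well-known set of feedback and metabolic genes within hours. Of 19 tested members, 12 had a higher and 1 a lower response in clone 1, with a median difference of 1.45 against -0.01 over all genes. The median response of the list was 0.30 in WT and 2.02 in clone 1. Fkbp5 had 7.32, 9.85 and 12.1 CPM in the uninduced WT libraries, 86.2, 88.5 and 80.8 in the stimulated WT libraries, 7.94, 8.58 and 7.69 in uninduced clone 1 and 481, 506 and 471 in stimulated clone 1. FKBP5, a co-chaperone that restrains the receptor, rose in both genotypes, by 3.09 in WT and 5.91 in clone 1, from levels that overlapped uninduced to levels that did not. The difference was 2.82 (SE 0.154, edgeR adjusted p = 8.72e-11). Tsc22d3 had 16.3, 15.4 and 14.2 CPM in the uninduced WT libraries, 3.9, 4.63 and 5.71 in the stimulated WT libraries, 6.43, 8.74 and 8.57 in uninduced clone 1 and 27.4, 34.7 and 34.1 in stimulated clone 1. Tsc22d3 encodes GILZ, a mediator of anti-inflammatory glucocorticoid action, and it fell in WT and rose in clone 1 (difference 3.7 (SE 0.211, edgeR adjusted p = 6.61e-12)). Glul had 120.3, 127 and 123 CPM in the uninduced WT libraries, 42.7, 46.1 and 47.3 in the stimulated WT libraries, 93.9, 99.8 and 110.0 in uninduced clone 1 and 315, 330.3 and 323 in stimulated clone 1. Glutamine synthetase showed the same opposite movement, with no overlap between genotypes once stimulated and a difference of 3.12 (SE 0.0839, edgeR adjusted p = 3.32e-17).

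Klf9 had 35.7, 37.5 and 39.5 CPM in the uninduced WT libraries, 34.2, 37.3 and 33 in the stimulated WT libraries, 10.8, 11.6 and 10.8 in uninduced clone 1 and 78.8, 85.8 and 85.4 in stimulated clone 1. KLF9, a glucocorticoid-induced Krüppel-like factor, started lower in clone 1, rose by 2.91 there and responded by -0.11 in WT (difference 3.02 (SE 0.114, edgeR adjusted p = 5.58e-15)). Pdk4 had 132, 140.4 and 144 CPM in the uninduced WT libraries, 956, 932 and 957 in the stimulated WT libraries, 3.995, 4.4 and 4.39 in uninduced clone 1 and 156, 167 and 173 in stimulated clone 1. PDK4, the kinase that shuts pyruvate out of oxidation, rose in both, by 2.77 in WT and 5.28 in clone 1, and stayed below WT at the end. In uninduced cells 5 of the 19 members were lower and 1 higher in clone 1, and in stimulated cells 13 were higher and 3 lower. The receptor gene Nr3c1 itself was among the 12. The member with a lower response was Tgm2, a transglutaminase.

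Genes of the cAMP response had 9 higher and 3 lower responses among 19 tested. The lower ones were Adcy7 and the phosphodiesterases Pde4a and Pde10a. The list had a median response of 0.94 in WT and 1.11 in clone 1, with 9 called rises in WT and 10 in clone 1. Its median difference in response was 0.81. That median was 0.54 with genes lacking counts set at the floor, and 1.31 without uninduced clone 1 replicate 3. Pde4b had 13.3, 14 and 13.8 CPM in the uninduced WT libraries, 25.4, 26.7 and 27.1 in the stimulated WT libraries, 2.44, 2.17 and 2.67 in uninduced clone 1 and 54.3, 56.9 and 60.3 in stimulated clone 1. The phosphodiesterase PDE4B, which degrades cAMP and is induced by it, rose by 4.55 in clone 1 and by 0.94 in WT, which is under the size threshold (difference 3.61 (SE 0.148, edgeR adjusted p = 2.45e-14)). Sik1 had 82.4, 70.7 and 78.6 CPM in the uninduced WT libraries, 29.2, 33.2 and 30.2 in the stimulated WT libraries, 50.6, 60.8 and 48.9 in uninduced clone 1 and 122, 139.5 and 138 in stimulated clone 1. SIK1, a kinase induced by cAMP, fell in WT and rose in clone 1, with a difference of 2.64 (SE 0.119, edgeR adjusted p = 1.52e-13). Rgs2 had 41.6, 41.3 and 35.6 CPM in the uninduced WT libraries, 102, 97.9 and 98.5 in the stimulated WT libraries, 41.2, 41.9 and 39.8 in uninduced clone 1 and 424, 472 and 448 in stimulated clone 1. RGS2, which dampens G protein signalling, rose in both genotypes and further in clone 1 (2.11). The orphan nuclear receptor Nr4a3 rose by 2.36 in WT and 4.99 in clone 1. Adcy7, an adenylyl cyclase, went the other way: it rose by 1.95 in WT and had a response of -0.31 in clone 1, a difference of -2.26 (SE 0.127, edgeR adjusted p = 5.15e-12).

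Of 15 tested core clock genes, 4 had a higher response and none a lower one. The D-box binding factor Dbp fell from 36.1 ± 2.54 to 0.546 ± 0.407 CPM in WT and from 41 ± 1.03 to 3.16 ± 0.293 CPM in clone 1 (SD, n = 3). Its relative Tef, which binds the same sequence, fell by a log2 change of -2.95 in WT and -1.82 in clone 1. Per2 had 4.84, 4.98 and 6.09 CPM in the uninduced WT libraries, 2.6, 2.74 and 2.12 in the stimulated WT libraries, 7.83, 8.79 and 8.73 in uninduced clone 1 and 16, 22.1 and 19.8 in stimulated clone 1. The period gene Per2 fell in WT and rose in clone 1, the stimulated groups did not overlap, and the difference was 2.29 (SE 0.239, edgeR adjusted p = 1.07e-07). Of the exonic bases of Dbp, 18% lie under another gene.

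Acute phase and complement genes were among the largest gains, with 8 higher and 2 lower responses among 16 tested. Among the 8, 6 had a called fall in WT and 4 a called rise in clone 1. Over the 16, clone 1 had 5 called rises and 6 called falls. The list had a median difference of 1.51, from a median response of -1.85 in WT and 0.22 in clone 1. These are secreted defence and iron- or haemoglobin-handling proteins that glucocorticoids and interleukin 6 family cytokines induce together in the liver. Serpina3n had 5.61, 6.99 and 7.1 CPM in the uninduced WT libraries, 5.34, 4.24 and 5.94 in the stimulated WT libraries, 23.1, 16.7 and 21.1 in uninduced clone 1 and 1398, 1360 and 1221 in stimulated clone 1. SERPINA3N, a serine protease inhibitor, rose by 6.03 in clone 1 and responded by -0.36 in WT, where the states overlapped. The difference was 6.39 (SE 0.202, edgeR adjusted p = 4.36e-12). Hp had 64.1, 54 and 52.5 CPM in the uninduced WT libraries, 12.5, 12.8 and 13.1 in the stimulated WT libraries, 67.7, 61.1 and 71.2 in uninduced clone 1 and 919, 870.3 and 761 in stimulated clone 1. Haptoglobin, which binds free haemoglobin, fell in WT and rose in clone 1 from uninduced levels without a call between genotypes, with a difference of 5.82 (SE 0.122, edgeR adjusted p = 6.08e-17).

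Serpina3g had 1.54, 3.28 and 1.71 CPM in the uninduced WT libraries, 0.899, 0.53 and 0.782 in the stimulated WT libraries, 11.5, 9.17 and 9.41 in uninduced clone 1 and 67.8, 69.6 and 61.3 in stimulated clone 1. Serpina3g belongs to the same gene cluster as Serpina3n, and reads shared between such near copies make the split between them uncertain. C1s1 had 62.4, 66.4 and 61.6 CPM in the uninduced WT libraries, 0.799, 0.53 and 1.01 in the stimulated WT libraries, 128, 143 and 133 in uninduced clone 1 and 16.1, 12.4 and 16.6 in stimulated clone 1. C1s1, a protease of the classical complement pathway, fell in both genotypes, by a log2 change of -6.34 in WT and -3.17 in clone 1, so its higher response was a smaller fall. Of the exonic bases of C1s1, 18.4% lie under another gene. Already in uninduced cells 10 of the 16 members were higher in clone 1 and 1 lower, and stimulated 14 were higher and 2 lower. The lower responses were those of Orm1, an acute phase carrier protein, and Ptx3, a pattern recognition protein. Among chemokines and cytokines, 2 of 19 had a higher and 3 a lower response. Lif, an interleukin 6 family cytokine, rose from 0.805 ± 0.334 to 8.11 ± 0.903 CPM in WT and from 0.866 ± 0.243 to 34.7 ± 3.68 CPM in clone 1 (SD, n = 3), a difference of 2.03 (SE 0.361, edgeR adjusted p = 1.46e-04).

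Interferon-stimulated and antigen presentation genes had median responses of -2.23 in WT and -2.49 in clone 1. The response was lower in clone 1 for 5 of 26 tested and higher for 2. With 1 library left out in turn, the number of lower responses ranged from 3 to 6. Tap1, a peptide transporter, fell by a log2 change of -2.21 in WT and -3.56 in clone 1, and the transcription factor Irf1 by -1.57 in clone 1 against a WT response of -0.44. In the NF-kB list 2 of 21 genes were higher: Sod2, the mitochondrial superoxide dismutase, by 1.31, and the inhibitor Nfkbia by 1.08.

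Of 24 glutathione and antioxidant genes 7 had a higher response and none a lower one, with a median response of -0.46 in WT and 0.03 in clone 1. Of these 7, 4 fell in WT and 2 rose in clone 1. Mgst1 and Mgst3, microsomal glutathione transferases, fell by a log2 change of -2.16 and -2.19 in WT and had responses of -0.14 and -0.48 in clone 1, and the glutathione transferase Gstm1 fell in both, by -3.3 in WT and -1.86 in clone 1. Nqo1 had 515, 554 and 508 CPM in the uninduced WT libraries, 320.2, 292 and 280.4 in the stimulated WT libraries, 405, 405 and 404 in uninduced clone 1 and 1066, 968 and 943 in stimulated clone 1. The quinone reductase NQO1 rose in clone 1 by 1.29 and had a WT response of -0.82 (difference 2.12 (SE 0.0771, edgeR adjusted p = 3.74e-15)). Gclc, the catalytic subunit of the enzyme that starts glutathione synthesis, rose from 48.6 ± 2.88 to 245 ± 8.85 CPM in clone 1 and went from 81.8 ± 9.25 to 123 ± 8.76 CPM in WT (SD, n = 3). The ferritin heavy chain Fth1, which stores iron, went from 8502 ± 278 to 14502 ± 999 CPM in clone 1 and from 6260 ± 198 to 4683 ± 26 CPM in WT. The difference for Fth1 was 1.19 (SE 0.0615, edgeR adjusted p = 1.17e-12), although neither response alone exceeded 1 on the log2 scale.

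Lipid storage genes gained response. Of 16 tested lipid droplet and lipolysis genes, 12 had a higher response and none a lower one, and all 16 had a difference above 0, with a median of 1.89. The list had a median response of -0.80 in WT and 0.93 in clone 1. Among the 12, 6 had a called fall in WT and 6 a called rise in clone 1. In stimulated cells 10 of the 16 were higher in clone 1 than in WT and 2 lower. Lpl, among the 12 and below WT in both states, had means of 0.28 CPM in uninduced and 0.22 CPM in stimulated clone 1. In WT it fell from 32 to 4.06 CPM, so its difference of 2.56 rests on few counts in clone 1. Mgll had 12.9, 15 and 11.4 CPM in the uninduced WT libraries, 3.25, 3.31 and 2.44 in the stimulated WT libraries, 20.1, 16 and 16.9 in uninduced clone 1 and 30.3, 33.2 and 26.8 in stimulated clone 1. Monoacylglycerol lipase, the last enzyme of lipolysis, fell in WT and had a response of 0.77 in clone 1 (difference 2.89 (SE 0.205, edgeR adjusted p = 2.20e-10)). G0s2 had 17.8, 14.7 and 17.8 CPM in the uninduced WT libraries, 7.14, 6.88 and 6.54 in the stimulated WT libraries, 107, 109 and 102 in uninduced clone 1 and 188, 174 and 166 in stimulated clone 1. G0S2, an inhibitor of the triglyceride lipase ATGL, was above every WT library in both states of clone 1, and the gap widened on stimulation (difference 2.02 (SE 0.115, edgeR adjusted p = 6.28e-12)). Lipe had 16.8, 16.3 and 15.2 CPM in the uninduced WT libraries, 8.29, 6.002 and 6.49 in the stimulated WT libraries, 16.6, 16.6 and 16.6 in uninduced clone 1 and 27.8, 31.8 and 30.5 in stimulated clone 1. Hormone-sensitive lipase overlapped between genotypes uninduced and not stimulated, with a difference of 2.07 (SE 0.165, edgeR adjusted p = 1.50e-09), and 15.6% of its exonic bases lie under another gene.

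Of 18 tested genes of fatty acid and triglyceride synthesis, 10 had a higher and none a lower response (median difference 1.06). Scd1 had 209.5, 201 and 195 CPM in the uninduced WT libraries, 296, 284 and 289.6 in the stimulated WT libraries, 257, 249 and 311 in uninduced clone 1 and 2529, 2770 and 2392 in stimulated clone 1. SCD1, the desaturase that makes monounsaturated fatty acids, rose by 3.24 in clone 1 against 0.52 in WT (difference 2.71 (SE 0.100, edgeR adjusted p = 4.94e-13)). Dgat2 had 41.6, 45.1 and 36.6 CPM in the uninduced WT libraries, 13.9, 15.4 and 15.6 in the stimulated WT libraries, 66.6, 67 and 66.3 in uninduced clone 1 and 158, 171 and 146 in stimulated clone 1. DGAT2 catalyses the last step of triglyceride synthesis, and it fell in WT and rose in clone 1 (2.7 (SE 0.113, edgeR adjusted p = 3.52e-14)). Its counterpart Dgat1 rose from 34 ± 2.44 to 222 ± 13.7 CPM in clone 1 and from 26.1 ± 3.95 to 42 ± 3.34 CPM in WT (SD, n = 3), where the change was under the threshold. Elovl6 had 246, 221 and 213 CPM in the uninduced WT libraries, 67.6, 59.3 and 62.3 in the stimulated WT libraries, 159, 159 and 161 in uninduced clone 1 and 159, 182 and 178 in stimulated clone 1. The elongase ELOVL6 fell in WT and had a response of 0.12 in clone 1 (difference 1.96 (SE 0.0896, edgeR adjusted p = 1.47e-13)).

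Among 14 tested adipokine and fatty acid carrier genes, 4 had a higher response and 1 a lower one. Fabp4 had 1.95, 0.529 and 0.931 CPM in the uninduced WT libraries, 0.300, 0.574 and 1.06 in the stimulated WT libraries, 0.778, 0.977 and 0.784 in uninduced clone 1 and 16.7, 25.5 and 20.1 in stimulated clone 1. The fatty acid carrier FABP4, a marker of adipocytes, rose in clone 1 alone, from levels that overlapped WT (difference 5.37 (SE 0.564, edgeR adjusted p = 3.86e-07)). Acsl1, which activates fatty acids, rose by 2.03 in clone 1 and had a WT response of -0.27, and 9.91% of its exonic bases lie under another gene. Apln, the apelin peptide, fell in clone 1 by a log2 change of -1.71. Adipoq and Lep, which mark mature adipocytes, were not tested: Lep had no count in the 12 libraries and Adipoq did not exceed 1.12 CPM in any. The summed level of 8 mature adipocyte markers was 17.4 to 18.7 CPM in uninduced and 6.58 to 8.59 CPM in stimulated WT, and 17.8 to 18.5 CPM in uninduced and 58.9 to 75.7 CPM in stimulated clone 1. The sum was mostly Lipe in the first 3 groups, and Lipe, Fabp4, Plin1 and Cidec in stimulated clone 1. Retn, Lep and Cfd had no count in clone 1, and Adipoq was at or below 0.38 CPM there.

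Of 23 tested adipogenic transcription factors, 11 had a higher and none a lower response, with a median difference of 1.4; the median response was -1.13 in WT and 0.12 in clone 1. Rxra, the partner receptor of PPARγ, went from 219 ± 5.97 to 122 ± 4.32 CPM in WT and from 258 ± 4.39 to 514 ± 31.8 CPM in clone 1 (SD, n = 3), a difference of 1.84 (SE 0.0709, edgeR adjusted p = 8.27e-15). Cebpa had 91.8, 86.4 and 87.3 CPM in the uninduced WT libraries, 49.8, 47.5 and 48.5 in the stimulated WT libraries, 55.7, 57.1 and 62.4 in uninduced clone 1 and 128, 123 and 109.8 in stimulated clone 1. C/EBPα, which sustains the adipocyte programme with PPARγ, rose in clone 1 and had a WT response of -0.87, a difference of 1.91 (SE 0.0935, edgeR adjusted p = 4.94e-13). Cebpb and Cebpd, the early factors of the cascade, rose in both genotypes with differences of 0.79 and 0.70, under the size threshold. Of their exonic bases, 20.7% and 15% lie under another gene. Of fatty acid oxidation and peroxisome genes, 3 of 25 were higher, with Pdk4 and the dehydrogenase Acadm (1.85) among them.

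**Figure D3:**
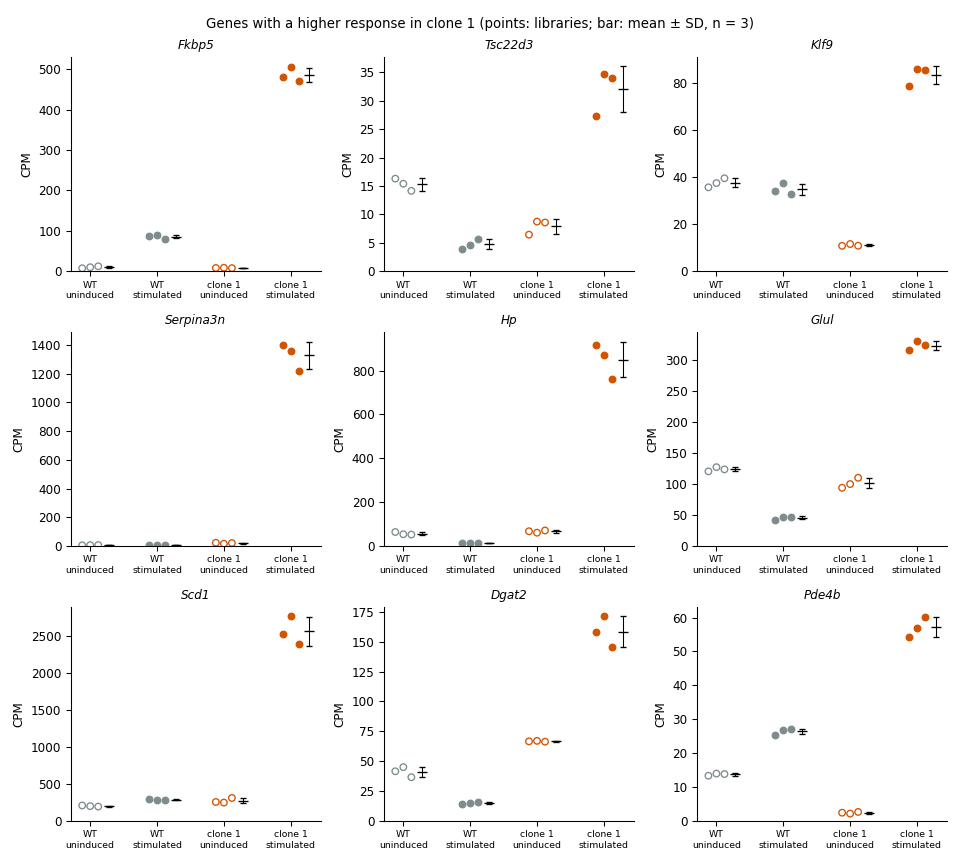
CPM of 9 genes with a higher response in clone 1, by group; points are the 3 libraries and the bar beside them is the mean ± SD, on linear axes from 0. In every panel the stimulated clone 1 libraries lie above the other 9 libraries, for example at 471 to 506 CPM for Fkbp5 and 1221 to 1398 CPM for Serpina3n.

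Contractile and actin genes lost response. TGF-β1 induces them through SMADs and through serum response factor and its actin-sensing cofactors. Of 23 tested, 11 had a lower response in clone 1 and none a higher one, with a median difference of -0.89, from 0.59 in WT to -0.44 in clone 1. In WT 7 of the 23 rose and 2 fell, and in clone 1 none rose and 5 fell. Acta2 had 257, 294 and 281 CPM in the uninduced WT libraries, 2038, 2179 and 2020 in the stimulated WT libraries, 421, 419 and 430.5 in uninduced clone 1 and 322, 308 and 309 in stimulated clone 1. Smooth muscle α-actin (ENSMUSG00000035783, chromosome 19 from 34241090 to 34255336), the defining myofibroblast actin, rose by 2.91 in WT and had a response of -0.44 in clone 1. The difference was -3.34 (SE 0.0702, edgeR adjusted p = 1.12e-18), and no stimulated library of clone 1 came near the WT range. Cnn2 had 201, 218 and 219 CPM in the uninduced WT libraries, 563, 579 and 554 in the stimulated WT libraries, 147, 137 and 135 in uninduced clone 1 and 125, 116 and 119 in stimulated clone 1. Calponin 2, an actin-binding protein, rose in WT only (difference -1.63 (SE 0.0714, edgeR adjusted p = 7.61e-14)). Tpm1 had 497, 539.9 and 565 CPM in the uninduced WT libraries, 402, 419 and 410.1 in the stimulated WT libraries, 489.8, 504 and 475 in uninduced clone 1 and 122, 116 and 116 in stimulated clone 1. Tropomyosin 1 had a response of -0.38 in WT and fell in clone 1 by a log2 change of -2.05. Actg2, enteric smooth muscle γ-actin, rose in WT to 21.6, 24.7 and 21.6 CPM and stayed below 1.36 CPM in clone 1. Tagln was at or below 0.9 CPM in all 12 libraries with a difference of -0.32 and no call. Other-strand genes overlap 67.9% of the exon sequence of Tagln and the strand setting of the counting is not given, so that its level is uncertain.

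Promoter windows were searched for the CArG box, the sequence that serum response factor binds; its part in the responses was not tested. Windows from 250 bases before to 50 after the transcription start, from RefSeq on GRCm38.p6, were matched by symbol to 9996 of the 14056 tested genes. A CArG box on either strand was found in the windows of 1.56% of these genes, of 4.93% of those with a lower response (17 of 345) and of 1.89% of those with a higher response (10 of 530). A match is a description of the letters and not a binding site. Only A or T was allowed between CC and GG, and only these windows were searched. A gene without a match can therefore still have a CArG box. The windows below are those of the 4 genes described here by name among the 17, with the CArG box in capitals. Myl9 and Cnn2 are members of the contractile list, Pdgfc and Lama2 are not, and Acta2 is not among the 17. Its first base lies 161 bases before the start for Myl9, 56 for Cnn2, 17 for Pdgfc and 39 for Lama2.
Myl9 (chr2:156775214-156775513, + strand): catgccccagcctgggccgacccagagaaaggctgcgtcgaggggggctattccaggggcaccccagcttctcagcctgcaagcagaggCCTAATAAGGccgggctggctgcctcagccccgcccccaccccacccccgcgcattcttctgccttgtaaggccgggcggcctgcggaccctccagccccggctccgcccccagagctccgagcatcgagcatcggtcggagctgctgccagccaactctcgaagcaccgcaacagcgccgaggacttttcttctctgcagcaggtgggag
Cnn2 (chr10:79988350-79988649, + strand): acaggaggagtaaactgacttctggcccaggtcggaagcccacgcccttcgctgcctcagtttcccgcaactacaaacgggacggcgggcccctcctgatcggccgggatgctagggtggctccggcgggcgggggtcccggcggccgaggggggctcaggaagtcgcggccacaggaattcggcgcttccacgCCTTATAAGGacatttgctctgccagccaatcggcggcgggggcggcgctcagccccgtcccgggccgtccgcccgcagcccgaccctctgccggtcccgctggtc
Pdgfc (chr3:81036166-81036465, + strand): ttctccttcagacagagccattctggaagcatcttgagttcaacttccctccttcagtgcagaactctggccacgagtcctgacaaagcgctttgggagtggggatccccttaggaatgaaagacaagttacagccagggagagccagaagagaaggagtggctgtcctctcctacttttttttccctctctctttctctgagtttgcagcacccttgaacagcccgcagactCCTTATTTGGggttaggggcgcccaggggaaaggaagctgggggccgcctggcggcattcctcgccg
Lama2 (chr10:27616893-27617192, - strand): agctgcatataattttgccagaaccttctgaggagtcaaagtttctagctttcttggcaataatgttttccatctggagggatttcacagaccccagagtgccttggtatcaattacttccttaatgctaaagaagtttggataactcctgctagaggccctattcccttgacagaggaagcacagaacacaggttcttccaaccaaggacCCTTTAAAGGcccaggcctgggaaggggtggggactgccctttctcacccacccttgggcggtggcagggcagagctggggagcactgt

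Each of the 4 genes had a lower response in clone 1. Myl9, the regulatory light chain of myosin, rose in WT and was near 0 in clone 1, as given above. Lama2, a laminin chain of the basement membrane, fell in clone 1 by a log2 change of -4.76 and had a WT response of -0.92, so its lower response was not a lost rise. The other 9 motifs searched on both strands differed by smaller ratios between the 3 sets of genes or were rare. AP-1 (TGANTCA) was found in 6.2% of all, 9.86% of lower and 7.74% of higher-response genes, and the composite site of ATF4 and C/EBP (TGATGNAA) in 2.71%, 4.93% and 2.26%. The cAMP response element (TGACGTCA) was found in 3.66%, 4.06% and 1.70%, the E-box (CACGTG) in 11.7%, 7.54% and 11.3%, and the glucocorticoid half-site (TGTTCT) in 14.5%, 16.8% and 16.04%. The STAT motif (TTCNNNGAA) had shares of 8.14%, 8.12% and 7.55%, and the PAR bZIP motif (TTANGTAA) 1.83%, 2.61% and 2.45%. The SMAD palindrome (GTCTAGAC) and the full glucocorticoid response element were found in 0.270% and 0.0100% of all.

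Matricellular, elastic fibre and proteoglycan genes had more lower than higher calls, 12 against 1 of 29 tested. Among the 12, 5 had a called rise in WT and 7 a called fall in clone 1. Over the 29 genes, called rises numbered 11 in WT and 9 in clone 1, and 12 differences were above 0 and 17 below. Their median difference was -0.29, and it moved to -0.71 without stimulated clone 1 replicate 2, -0.46 without uninduced clone 1 replicate 1 and -0.46 without uninduced clone 1 replicate 3. Thbs2 had 26.9, 20.3 and 22.6 CPM in the uninduced WT libraries, 202, 199 and 209 in the stimulated WT libraries, 21.9, 23.1 and 23.9 in uninduced clone 1 and 18.4, 19.9 and 19.7 in stimulated clone 1. Thrombospondin 2, a matricellular regulator of collagen assembly, rose by 3.13 in WT and had a response of -0.25 in clone 1, from uninduced levels that overlapped (difference -3.38 (SE 0.117, edgeR adjusted p = 1.60e-15)). Thbs1 had 78.4, 66.2 and 62.8 CPM in the uninduced WT libraries, 734, 824 and 664 in the stimulated WT libraries, 97.1, 94.6 and 86.6 in uninduced clone 1 and 225, 261 and 238 in stimulated clone 1. Thrombospondin 1, which activates latent TGF-β, rose in both genotypes and less in clone 1 (difference -2.04 (SE 0.126, edgeR adjusted p = 3.86e-09)). Mfap5 had 17, 19.6 and 20.9 CPM in the uninduced WT libraries, 38.8, 40.1 and 44.6 in the stimulated WT libraries, 15.9, 16.3 and 14.9 in uninduced clone 1 and 8.79, 9.63 and 6.9 in stimulated clone 1. MFAP5, a microfibril protein, rose in WT and not in clone 1 (-1.99 (SE 0.168, edgeR adjusted p = 3.64e-09)). Spp1, osteopontin, went from 149 ± 13 to 296 ± 38.9 CPM in WT and fell from 582 ± 21.2 to 202 ± 4.07 CPM in clone 1 (SD, n = 3), and 18.8% of its exonic bases lie under another gene. The member with a higher response was versican (Vcan).

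Collagens did not move as a group, with 5 higher and 4 lower responses among 20 tested. Col1a1, the main fibrillar collagen, rose from 9554 ± 254 to 29479 ± 567 CPM in WT and from 12042 ± 434 to 31483 ± 1371 CPM in clone 1 (SD, n = 3). Its difference of -0.24 (SE 0.0534, edgeR adjusted p = 0.00145) was under the size threshold, as was that of Col3a1 (-0.42). Col6a3 had 809.9, 666 and 693 CPM in the uninduced WT libraries, 224, 264 and 236 in the stimulated WT libraries, 1032, 964 and 1001 in uninduced clone 1 and 759, 1096 and 871 in stimulated clone 1. A chain of the microfibrillar collagen VI, Col6a3 fell in WT and not in clone 1 (difference 1.45 (SE 0.183, edgeR adjusted p = 2.11e-04)). Of 18 collagen crosslinking and processing genes none was called, and lysyl oxidase (Lox) rose by 2.15 in WT and 1.3 in clone 1. The basement membrane genes had 1 higher and 2 lower responses of 13 tested. Among metalloproteinases and inhibitors 1 of 20 was higher and 3 lower, and Timp1, an inhibitor of matrix breakdown, rose by 4.14 in WT and 2.5 in clone 1.

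Within the TGF-β pathway list 3 of 31 tested genes had a higher and 3 a lower response, and the median difference was 0.16. Inhba had 6.38, 6.14 and 7.44 CPM in the uninduced WT libraries, 339, 321 and 317 in the stimulated WT libraries, 7.78, 3.85 and 6.59 in uninduced clone 1 and 39.7, 46.3 and 45.1 in stimulated clone 1. Inhba encodes the subunit of activin A, a TGF-β family ligand, and it rose in both genotypes, by 5.6 in WT and 2.84 in clone 1 (difference -2.75 (SE 0.215, edgeR adjusted p = 8.26e-08)). Grem1 had 16.4, 17.4 and 17.6 CPM in the uninduced WT libraries, 192, 191 and 187 in the stimulated WT libraries, 3.32, 2.17 and 0.784 in uninduced clone 1 and 2.06, 1.35 and 1.01 in stimulated clone 1. Gremlin 1, a secreted antagonist of BMPs, rose in WT and stayed below 3.33 CPM in clone 1 (-4.002 (SE 0.432, edgeR adjusted p = 1.40e-05)). Il11, a TGF-β-induced cytokine, was the other member with a lower response. On the higher side were the co-receptor Tgfbr3 (1.81), the inhibitor of differentiation Id2 (1.5) and the EMT factor Snai1, which rose by 1.21 in WT and 2.28 in clone 1. Called rises among the 31 genes numbered 12 in WT and 13 in clone 1.

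Growth factor genes moved in both directions. Of 25 tested genes of PDGF, FGF and EGF signalling, 6 had a higher response (Dusp4, Fgfr2, Dusp6, Spry1, Tgfa and Fgf2) and 5 a lower one (Fgf18, Nrg1, Pdgfb, Pdgfc and Hbegf). All 5 on the lower side encode ligands, as do Tgfa and Fgf2 on the higher side, and the call of Fgf18 was lost without uninduced clone 1 replicate 2. Pdgfc had 5.2, 8.63 and 7.17 CPM in the uninduced WT libraries, 102, 101 and 108 in the stimulated WT libraries, 7.68, 8.31 and 7.32 in uninduced clone 1 and 24.1, 26.4 and 24.1 in stimulated clone 1. PDGF-C, a mitogen for mesenchymal cells, rose by 3.88 in WT and 1.68 in clone 1 (difference -2.2 (SE 0.167, edgeR adjusted p = 6.79e-10)). Nrg1 had 19.1, 13.8 and 19 CPM in the uninduced WT libraries, 47.6, 43.8 and 48.7 in the stimulated WT libraries, 12.1, 13.1 and 11.7 in uninduced clone 1 and 3.53, 4.48 and 4.19 in stimulated clone 1. Neuregulin 1, an EGF family ligand, rose in WT and fell in clone 1 (-3.02 (SE 0.184, edgeR adjusted p = 1.87e-11)). Dusp4, a phosphatase that ends MAP kinase signalling, rose by 3.27 in clone 1 and had a WT response of 0.76. In the IGF axis 3 of 12 were higher (Irs2, Igfbp4 and Igfbp5) and 2 lower (Igf1 and Igfbp3). Irs2 had 36.3, 31.9 and 32.1 CPM in the uninduced WT libraries, 44.1, 49.9 and 41.6 in the stimulated WT libraries, 17.7, 18.3 and 14.6 in uninduced clone 1 and 123, 159.5 and 143 in stimulated clone 1. IRS2, an adaptor of the insulin receptor, rose in clone 1 only (2.63 (SE 0.145, edgeR adjusted p = 1.52e-11)). Igf1 had 166, 166 and 168 CPM in the uninduced WT libraries, 258, 262 and 257 in the stimulated WT libraries, 36.6, 39.4 and 42.2 in uninduced clone 1 and 14.1, 15 and 16.8 in stimulated clone 1. IGF1 was lower in clone 1 in both states, fell there, and had a WT response of 0.63 (-1.995 (SE 0.0898, edgeR adjusted p = 1.16e-13)).

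Wnt pathway genes had 7 lower and 3 higher responses among 25 tested, beside 14 that were lower in clone 1 than in WT in each state. Rspo2 had 1114, 1114 and 1032 CPM in the uninduced WT libraries, 543, 519 and 563 in the stimulated WT libraries, 353, 363 and 354 in uninduced clone 1 and 26.1, 30.2 and 27.4 in stimulated clone 1. R-spondin 2, an amplifier of Wnt signalling, fell in both genotypes and further in clone 1 (-2.67 (SE 0.0752, edgeR adjusted p = 6.08e-17)). Rspo3 had 55.7, 59.1 and 63.7 CPM in the uninduced WT libraries, 237, 236 and 218 in the stimulated WT libraries, 135, 133 and 128 in uninduced clone 1 and 97.6, 101 and 109.7 in stimulated clone 1. Its relative Rspo3 rose in WT and had a response of -0.36 in clone 1 (-2.31 (SE 0.0849, edgeR adjusted p = 4.24e-15)), and 13.1% of its exonic bases lie under another gene. Sfrp2, a secreted Wnt antagonist, fell from 249.6 ± 14.2 to 38.3 ± 2.16 CPM in WT and from 16.3 ± 1.79 to 0.343 ± 0.107 CPM in clone 1 (SD, n = 3), and 16.1% of its exonic bases lie under another gene. The higher responses were those of the receptors Ror1 (1.56), Lrp6 and Lrp5. Of Hedgehog and Notch genes 1 of 10 and 1 of 11 were higher, beside 5.18% of all tested genes. They were Ptch1 (1.63), the Hedgehog receptor, and Hey2.

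In the list of YAP and TEAD targets, which also holds the factor Tead4, 3 of 19 genes were lower and 1, Tead4, higher. Nuak2 had 8.44, 6.56 and 6.4 CPM in the uninduced WT libraries, 46.8, 46.1 and 44.4 in the stimulated WT libraries, 7.73, 9.5 and 9.15 in uninduced clone 1 and 10.6, 10.9 and 10.5 in stimulated clone 1. NUAK2, a kinase linked to actomyosin tension, rose in WT and had a response of 0.28 in clone 1 (-2.41 (SE 0.169, edgeR adjusted p = 1.84e-10)). Ajuba, a LIM adaptor of the Hippo pathway, rose by 1.37 in WT and had a response of -0.58 in clone 1. Tead4 had 5.61, 4.18 and 5.23 CPM in the uninduced WT libraries, 7.29, 5.65 and 5.57 in the stimulated WT libraries, 6.23, 4.45 and 6.01 in uninduced clone 1 and 44.2, 54.7 and 42.4 in stimulated clone 1. Tead4, a DNA-binding partner of YAP, rose in clone 1 alone (2.78 (SE 0.226, edgeR adjusted p = 1.98e-09)). In the bone and cartilage list 4 of 19 genes were higher and 4 lower. Scx had 1.89, 3.12 and 4.85 CPM in the uninduced WT libraries, 31.5, 35.2 and 31.5 in the stimulated WT libraries, 10.3, 9.45 and 7.58 in uninduced clone 1 and 7.6, 6.51 and 5.47 in stimulated clone 1. Scleraxis, the tendon transcription factor, rose in WT and not in clone 1 (-3.75 (SE 0.296, edgeR adjusted p = 7.60e-09)), and the tendon factor Mkx rose by 2.18 in WT against 0.88 in clone 1. Tnmd, tenomodulin, a tendon marker, fell in both, by a log2 change of -2.49 and -3.83.

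In the list of the unfolded protein and integrated stress responses, 5 of 23 were lower (Chac1, Phgdh, Shmt2, Mthfd2 and Psat1) and 1 higher (Dnajb9, an endoplasmic reticulum chaperone). Apart from Chac1 the lower ones encode enzymes of serine and one-carbon metabolism. Phgdh had 80.3, 93.4 and 84.1 CPM in the uninduced WT libraries, 121, 105 and 112 in the stimulated WT libraries, 177, 167 and 172 in uninduced clone 1 and 65.7, 62.1 and 63.8 in stimulated clone 1. PHGDH, the first enzyme of serine synthesis, was higher in clone 1 uninduced and fell there on stimulation, against a response of 0.39 in WT (-1.82 (SE 0.0893, edgeR adjusted p = 4.97e-13)). Shmt2 had 83.6, 75.1 and 76.6 CPM in the uninduced WT libraries, 232, 219.5 and 207 in the stimulated WT libraries, 68.6, 65.6 and 69.1 in uninduced clone 1 and 79.9, 76.5 and 75.2 in stimulated clone 1. The mitochondrial serine hydroxymethyltransferase rose in WT by 1.49 and had a response of 0.19 in clone 1 (-1.3 (SE 0.0826, edgeR adjusted p = 3.89e-11)). Chac1 had 8.38, 8.95 and 7.17 CPM in the uninduced WT libraries, 54.2, 41.6 and 47.1 in the stimulated WT libraries, 17.1, 20.3 and 16.9 in uninduced clone 1 and 27, 29 and 26.3 in stimulated clone 1. CHAC1, a glutathione-degrading enzyme induced by ATF4, rose in WT and had a response of 0.60 in clone 1 (-1.95 (SE 0.164, edgeR adjusted p = 3.47e-09)). Mthfd2, of mitochondrial folate metabolism, rose by 2.48 in WT and 1.33 in clone 1.

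Genes of MYC and ribosome biogenesis shared a small shift: 31 of 32 had a difference below 0 with a median of -0.66, and 3 were called lower. Their median response was 1.01 in WT, where 16 rose, and 0.27 in clone 1, where 3 rose. Ppan, a ribosome assembly factor, went from 15.8 ± 1.73 to 43.5 ± 2.3 CPM in WT and from 16.5 ± 0.687 to 19.4 ± 2.85 CPM in clone 1 (SD, n = 3). Of 35 cell cycle and mitosis genes 3 were lower and none higher. Ccnd1 had 92.8, 91.1 and 90.3 CPM in the uninduced WT libraries, 54.3, 55.1 and 55.4 in the stimulated WT libraries, 94.5, 94.2 and 90.3 in uninduced clone 1 and 10.5, 11.6 and 12.2 in stimulated clone 1. Cyclin D1, which drives entry into S phase, fell in clone 1 and had a WT response of -0.73 (-2.29 (SE 0.0923, edgeR adjusted p = 1.88e-14)), and 23.4% of its exonic bases lie under another gene. Of 12 prostaglandin genes 2 were lower, Pla2g4a (-1.58), which releases arachidonic acid, and Ptgs2 (-1.5), the inducible cyclooxygenase and a target of indomethacin.

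**Figure D4:**
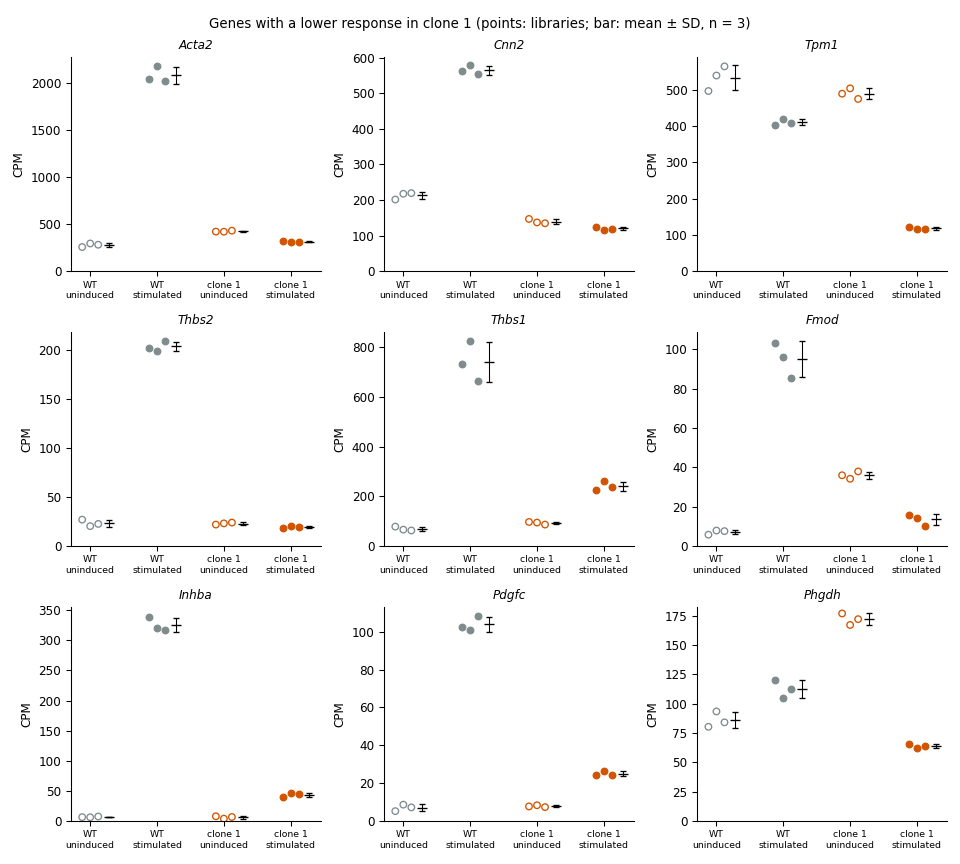
CPM of 9 genes with a lower response in clone 1, by group; points are the 3 libraries and the bar beside them is the mean ± SD, on linear axes from 0. The stimulated WT libraries lie above the stimulated clone 1 libraries in every panel, for example at 2020 to 2179 against 308 to 322 CPM for Acta2.

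Integrins and cadherins, which anchor cells to matrix and to each other, had 4 higher and 3 lower responses of 21, with a median difference of -0.26. The laminin receptor subunit Itga6 fell by a log2 change of -2.46 in WT and had a response of 0.43 in clone 1, a difference of 2.89 (SE 0.193, edgeR adjusted p = 3.15e-09). Itgb3, a subunit of the vitronectin receptor, rose by 2.08 in clone 1 against a WT response of 0.74. The integrin-like Itgbl1 fell by a log2 change of -1.35 in clone 1 and had a WT response of 0.34. Iron and ferritin genes had 2 higher responses of 10, Fth1 and the iron exporter Slc40a1, whose call was lost without uninduced clone 1 replicate 1.

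Other functions had few calls. None of 58 nuclear and 13 mitochondrially encoded oxidative phosphorylation genes was called, and 1 of 76 cytosolic ribosomal protein genes was (Rpl21, lower, whose many near-identical copies make its count uncertain). By edgeR at an unadjusted p under 0.05, 17 of the 58, 2 of the 13 and 12 of the 18 crosslinking genes differed, beside 5377 of the 14056, and DESeq2 called 0, 0 and 0. Rplp0, a ribosomal stalk protein, had a difference of 0.19 and Atp5b, of ATP synthase, -0.27. Of 22 sterol genes 1 was called (Pmvk, higher), a call that was lost without uninduced WT replicate 2 and without stimulated clone 1 replicate 1. Of 19 STAT, JAK and SOCS genes 1 was higher (Socs2), and of 21 lysosome and autophagy genes 1 (Ctsk). Glycolysis and hypoxia genes had 2 higher and 1 lower responses of 26, and CDK inhibitors and p53 targets 1 and 1 of 24. Trp53inp1, a p53 target, fell by a log2 change of -1.79 in WT and had a response of -0.29 in clone 1, while the death receptor Fas rose by 3.15 in WT and 1.55 in clone 1.

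**Figure D5:**
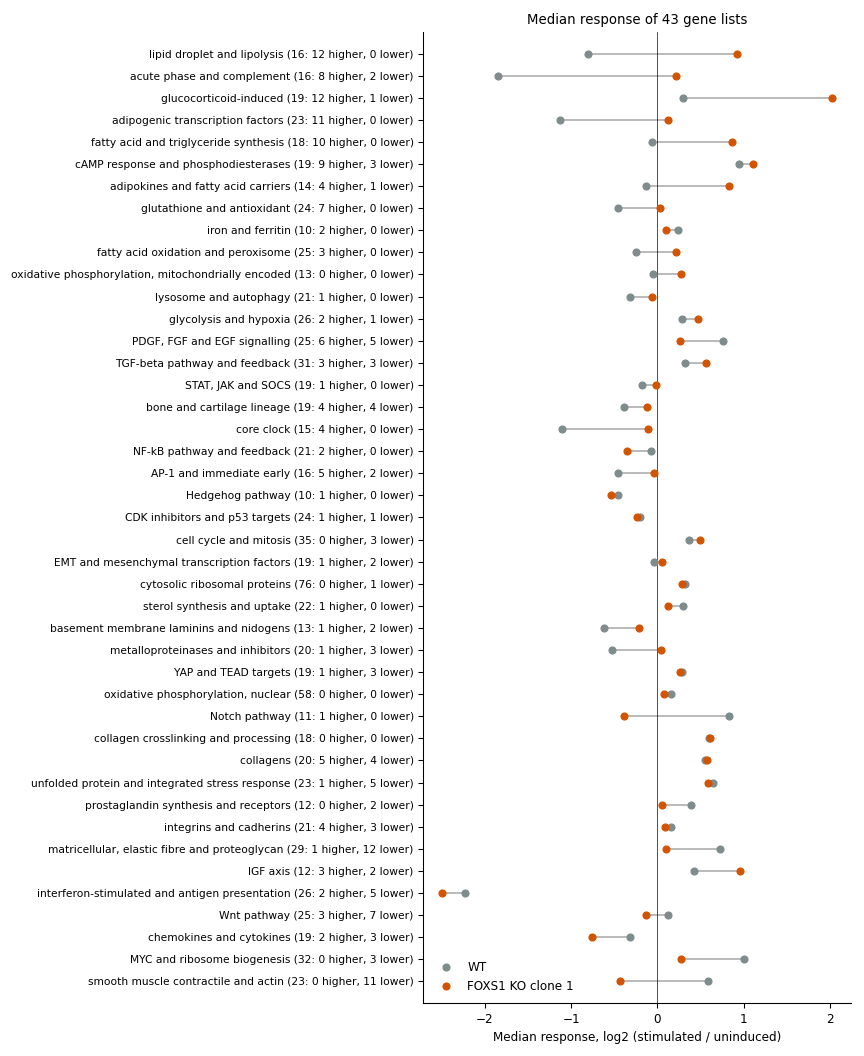
Median response (log2 of stimulated over uninduced) of the tested genes of 43 lists in WT (grey) and clone 1 (orange), ordered by the median over genes of the difference in response, which need not equal the distance between the points. Labels give the number of genes tested and the number called higher or lower. Lipid droplet genes stand at -0.80 in WT and 0.93 in clone 1, and contractile genes at 0.59 and -0.44.

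The count table marks 934 tested genes as transcription factors or cofactors, of which 58 (6.21%) had a higher and 29 (3.10%) a lower response, beside 5.18% and 3.33% of all genes. Of 19 EMT and mesenchymal transcription factors 1 was higher and 2 lower. Foxc2, a forkhead factor, rose from 23.2 ± 2.55 to 76.1 ± 3.33 CPM in clone 1 and went from 58.6 ± 2.37 to 57 ± 3.12 CPM in WT (SD, n = 3). Zeb1, an EMT repressor of epithelial genes, rose in WT by 1.08 and had a response of -0.05 in clone 1 (-1.12 (SE 0.0888, edgeR adjusted p = 1.35e-09)). Among AP-1 and immediate early genes 5 of 16 were higher and 2 lower, and Egr3 rose by 1.23 in clone 1 against a WT response of -0.59.

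FOXS1 KO clone 2, compared with the same WT libraries, had 1102 called differences in response among 13919 genes (7.92%). Because the WT libraries are shared, the 2 clones are not independent comparisons, and values are set side by side only. For clone 1 and clone 2 in that order, the difference in response was 2.82 and 2.62 for Fkbp5, 5.82 and 5.14 for Hp, and 6.39 and 5.31 for Serpina3n. It was -3.34 and -2.17 for Acta2, -5.15 and -6.13 for Fmod, and -1.82 and -1.7 for Phgdh. The values lay further apart for Thbs1, at -2.04 and 0.04, and for Mfap5, at -1.99 and 0.25. Among lipid and adipogenic genes they were 2.71 and 2.08 for Scd1, 2.7 and 1.71 for Dgat2, and 1.84 and 1.27 for Rxra. They lay further apart for Mgll (2.89 and 0.81), Cebpa (1.91 and 0.65), Acsl1 (2.3 and 0.57) and the acyltransferase Agpat2 (1.75 and -0.35), none of which was called in clone 2. As for Thbs1 and Mfap5, the sign differed between the clones for Agpat2, for the chemokine Ccl9 (-1.3 and 0.88) and for Nid1 (-4.34 and 1.64, called in both, with a clone 1 value that depends on the prior count). A direct test of the response of clone 1 against that of clone 2, which uses no WT library, called 474 of 13560 genes (3.5%). Among them were Serpina3n (1.06), Thbs1, Mfap5, Mgll, Cebpa, Acsl1, Agpat2, Ccl9 and Nid1. In this test Scd1 (0.61), Dgat2 (0.98) and Rxra (0.56) passed the threshold on p but not the one on size. Of the 20 largest gains and losses 18 could be tested this way and 9 were called.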

How the data were processed

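The authors sequenced poly(A) RNA and mapped the reads to mm10 (GRCm38) with HISAT2, and the deposited values are raw counts per gene without normalization. For the counting program, the annotation release and the handling of strand, nothing is stated in the sources used here. The file's own columns of gene position and transcription factor family were used as annotation. The analysis used edgeR 4.0.16 in R 4.3.3. After filterByExpr by group with a minimum count of 10, library sizes were adjusted by TMM, and the 4 group means were fitted (glmQLFit, robust) and contrasted with glmQLFTest, two-sided, with Benjamini-Hochberg adjustment over the 14056 genes. Standard errors were taken from the log2 value and its F statistic. A gene without counts in a group was also set at a floor of 3 counts over that group. Floors cover counting error only. The calling script was tested on simulated data.

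Library totals of 15576685 to 29383944 counts set the precision; the share of the 10 most abundant genes was 7.92% to 13.4%. Uninduced WT replicate 1 had the fewest genes detected (14964, others up to 19028). Replicates differed by more than counting error.

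The genes, the 43 functional lists and 7 marker lists were chosen from textbook functions with earlier results of these data known. Named genes were Foxs1, the 10 largest gains and 10 largest losses (mean of at least 5 CPM, called with every library left out in turn), up to 5 called members of each list with at least 5 CPM or else its most abundant member, and 8 genes that the study measured by RT-qPCR. Some other members are named only to complete a count, after their values were seen. A few members of the lists are counted but not reported here by name. Alternatives were the DESeq2 1.42.0 Wald test, DESeq2 size factors, no filter, a filter of 1 CPM in 3 libraries, all 6 groups in the fit, replicate number as a block, each library left out, no fold threshold, and glmTreat against 2-fold. Promoter windows came from a RefSeq table on GRCm38.p6. Positions of 150 of the 159 named genes matched the GENCODE M21 annotation exactly, and 20 had over 5% of their exonic bases under another gene. Figures were drawn with matplotlib 3.10.9 in Python 3.11.15.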

Additional observations from a re-analysis of the deposited data

Results flagged for a closer look

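The response differed between the genotypes for 728 genes on the higher and 468 on the lower side by the interaction test, and 37 genes fell in WT and rose in clone 1 while 15 rose in WT and fell in clone 1. With a mean of at least 5 CPM, Hp, Dusp18, Ceacam1, Serpina3g and Limch1 had the largest differences of the first kind, and Myl9, Fmod, Col8a2, Htra1 and Lrrc17 of the second. These were named after their values were seen.

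Of the 20 largest gains and losses, 18 could be tested directly between the 2 FOXS1 KO clones, without the WT libraries. The responses differed for 9 of these 18, beside 3.5% of all genes tested this way. The 20 were picked by the size of their difference in clone 1. Against WT, clone 2 had a call for 19 of the 20, for Nid1 in the other direction. The response of clone 1 exceeded that of clone 2 by 3.11 on the log2 scale for Plin4, 1.06 for Serpina3n, 2.65 for Wnk4, 3.21 for Fabp4, 3.05 for Col15a1, 1.19 for Ceacam1 and 2.79 for Scrn1. It was below that of clone 2 for Col8a2 (-1.04) and Nid1 (-6.03). Nid1 had no count in stimulated clone 1, so that its value depends on the prior count.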

How the results depend on the processing

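The counts of higher and lower responses stayed within 1.5 times of 728 and 468 under every alternative that changed the tool, scaling, filter, groups or block, and with each library left out (685 to 780 higher, 419 to 549 lower). They were 2081 and 2054 without the fold threshold, and 323 and 188 by glmTreat. None of the 1196 called genes was called in the other direction in any of these fits. Deviations from the group means correlated with r from -0.18 to 0.13 between same-numbered libraries and from -0.12 to 0.13 between other-numbered ones. With 3 libraries in a group these values cannot show whether replicate numbers pair the samples. With the replicate block 706 genes were higher and 459 lower, and 1150 of the 1196 called genes kept their call. List medians with 1 library left out ranged from 1.81 to 1.98 for lipid droplet genes, 1.29 to 1.49 for adipogenic factors, 0.75 to 1.31 for cAMP genes, 1.21 to 2.17 for acute phase genes, -1.02 to -0.83 for contractile genes and -0.71 to -0.25 for matricellular genes. The filter of 1 CPM gave medians of 1.04 for cAMP and -1.02 for contractile genes. Among the 159 named genes 11 lost a call with some library left out (Bnip3, Ccne1, Dkc1, Fgf18, Ifitm2, Itga1, Lpl, Phex, Pmvk, Rrp9 and Slc40a1), and Foxs1 gained one without uninduced WT replicate 3 or stimulated WT replicate 1. Genes with a group near 0 counts, such as Penk, Nid1 and Gm2a, are limited by depth.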
